A study of Homo sapiens with 3 samples.

Results

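In the sensitive monoculture, 1894 barcodes lay within the gene and UMI limits of the study but held 30% or more mitochondrial UMIs, and these high-mitochondrial barcodes were compared with the 3329 barcodes of the same library and the same limits that lay below 30%. The members were chosen by a measured value, the share of unique molecular identifiers (UMIs, each standing for 1 captured RNA molecule) on the 13 protein genes of the mitochondrial genome. Of the 8643 barcodes of the library, 5223 had more than 3000 and fewer than 7000 detected genes and more than 2000 and fewer than 60000 UMIs, and the members were 36.3% of these (exact binomial interval 34.96% to 37.6%). The deposited cell annotation held every one of the 3329 barcodes below 30% and none of the 1894 members, so clusters and phases assigned by the authors exist for the retained barcodes only.

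CAMA-1 cells are a line of luminal breast cancer that expresses the estrogen receptor. The spheroids were started from 2000 cells and were given 1 µM ribociclib, a CDK4/6 inhibitor that holds sensitive cells in G1, for 11 days. They were 100% sensitive cells (Venus-labelled, read here as the transgene mVenus), 50% sensitive and 50% ribociclib-resistant cells (coculture), or 0% sensitive, that is resistant cells labelled with mCherry, alone. All 3 libraries came from cells that had been viably frozen and thawed, no untreated spheroids were analysed here, and each condition had 1 library, so that samples could not be tested against each other and each value below describes these libraries, with intervals for counting error only.

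Mitochondria transcribe their own small genome inside the organelle, whereas the great majority of mitochondrial proteins, most subunits of the respiratory chain included, are made in the cytosol from messages of the nuclear genome. A limit on the mitochondrial share is a usual quality filter of single-cell data, meant to remove damaged cells, but cells may also differ in how much mitochondrial RNA they make. Whether the members were damaged was not tested here. MALAT1 and NEAT1, which are named repeatedly below, are long noncoding RNAs that remain in the nucleus, while ribosomal protein messages are short, abundant and cytoplasmic.

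The members had both more mitochondrial and less nuclear-encoded RNA. Their mitochondrial share ran from 30.01% through a median of 46.0% to 79.0%, against a median of 20.9% in the retained barcodes. The mean number of mitochondrial UMIs per barcode was 10930 in the members and 5858 in the retained barcodes, a ratio of 1.87, and the mean number of all other UMIs, called nuclear here, was 12787 against 23054, a ratio of 0.555. Median detected genes were 3860.5 and 4609. These values are tied to the rule, which used the share and the gene count, and are given as a description. Members just above the limit (30% to 31%, 83 barcodes) had a median of 18575 nuclear UMIs and 4484 genes. Retained barcodes just below it (29% to 30%, 90 barcodes) had 17626 and 4383.5. Depth was thus similar on both sides of the limit.

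**Figure D1:**
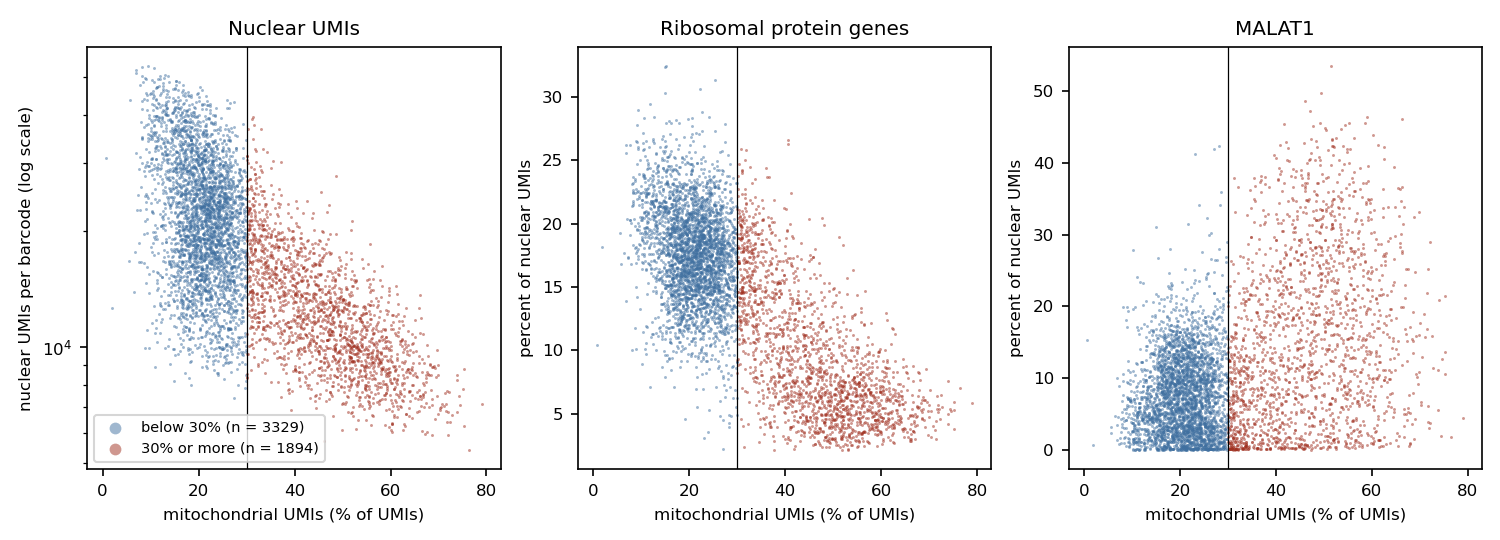
Each point is 1 of the 5223 barcodes of the sensitive monoculture within the gene and UMI limits, with its mitochondrial share of UMIs on the x axis and, from left to right, its nuclear UMIs (log scale), the percent of nuclear UMIs on ribosomal protein genes and the percent on MALAT1 on the y axis. The 1894 members lie right of the line at 30%; their ribosomal protein percent has a median of 7.92% against 17.7% in the 3329 retained barcodes, and their MALAT1 percent spreads from 0.0532% to 53.4%.

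The 13 mitochondrial messages were all higher per barcode, by similar factors. The rule used the share of UMIs on these genes, so their amount is tied to it and is given as a description. UMIs per barcode were between 1.65-fold (MT-ND4L, a complex I subunit) and 2.02-fold (MT-CO3, a cytochrome c oxidase subunit) those of the retained barcodes. As shares of mitochondrial UMIs, MT-CO2, the most abundant, made up 19.7% in the members and 20.8% in the retained barcodes, MT-CO1 10.1% and 10.9%, MT-ND4 10.2% and 10.5%, MT-CYB 10.9% and 10.5%, and MT-ATP6 14.7% and 13.7%. The differences in composition were thus small beside the difference in amount, although the counting intervals did not overlap except for MT-ATP8, at 0.0959% and 0.0962%. Nuclear genes of the MTRNR2L family nearly copy the mitochondrial 16S ribosomal RNA, and their UMIs cannot be told apart from it with certainty: MTRNR2L12 was at 10.0 CPM (UMIs scaled to a common total of nuclear UMIs) in the members and 2.92 CPM in the retained barcodes, and MTRNR2L1 at 12.8 and 4.01 CPM.

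**Figure D2:**
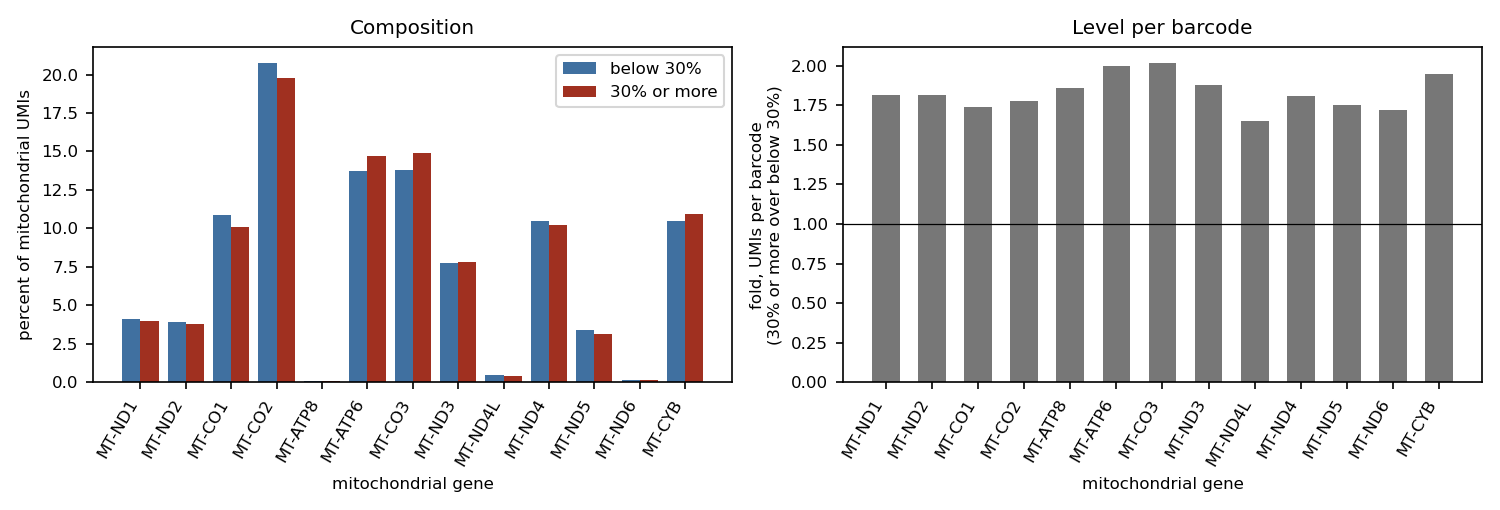
Left, the percent of mitochondrial UMIs on each of the 13 mitochondrial genes in the retained barcodes (blue) and the members (red) of the sensitive monoculture; right, the ratio of mean UMIs per barcode. The composition is similar in both sets, with MT-CO2 at 20.8% and 19.7%, while every gene is 1.65-fold to 2.02-fold higher per barcode. The rule used the share of UMIs on these genes, so their amount is tied to it.

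Nuclear genes were compared on a scale that leaves the mitochondrial genes out, so that a larger mitochondrial share does not lower every other gene. UMIs were summed over the members (24218764 nuclear UMIs) and over the retained barcodes (76746854), expressed as nuclear CPM, and compared as log2 of (CPM + 1) in the members over that in the retained barcodes, for the 12134 genes with at least 50 UMIs over both. Of these, 4555 genes were at least 1.5-fold higher in the members (37.5%) and 475 at least 1.5-fold lower (3.91%), with a median log2 ratio of 0.39. The scale moves this balance. With TMM factors, which take most genes as unchanged, every ratio of CPM moved by -0.44, the median with the pseudocount became 0.02, and 1694 genes were higher and 2053 lower. Among the 3226 genes whose mean reached 50 CPM the median was 0.03, with 729 higher and 359 lower. Counted per barcode and with no scaling, 3332 genes (27.5%) had more UMIs in a member than in a retained barcode despite the smaller nuclear total.

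Where the mean reached 50 CPM, the lowest was HIST1H4C, a histone H4 gene of S phase (chromosome 6, 26104161 to 26104565, GRCh37), at 26.5 CPM in the members and 114 CPM in the retained barcodes, a log2 ratio of -2.06. A UMI of it was found in 16.3% of members and 40.6% of retained barcodes. These shares also depend on nuclear depth, which was lower in the members. PTTG1, the securin that inhibits separase until anaphase, followed with 41.4 against 127 CPM (-1.60), then HMGN2, a nucleosome-binding protein, at -1.28, and RPS12, a protein of the small ribosomal subunit, with 959 against 2158 CPM (-1.17). Others of the 10 lowest were PTMA (-1.09), MRPL11 of the mitochondrial ribosome (-1.09), RPS10 (-1.01), RPL23A (-0.997) and RPS14 (-0.98).

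The 10 highest were genes of varied function. EME2, a subunit of a DNA repair endonuclease, was at 88.2 CPM in the members and 20.1 CPM in the retained barcodes (log2 ratio 2.08). LENG8 was at 126 and 29.8 CPM (2.04), and KIFC2, a kinesin motor, at 192 and 51.7 CPM (1.88). DGCR2 (1.78), ZNF587 (1.76), PIEZO1, a stretch-activated ion channel (1.65), AGRN, the matrix proteoglycan agrin (1.64), and FAM83H (1.61) came next. SLC7A5, the LAT1 carrier of leucine and other large neutral amino acids, stood at 508 CPM (499 to 517, exact Poisson interval) against 166 CPM (163 to 169), and NEAT1 at 14307 CPM against 4743 CPM. Like the others of the 10 highest, and unlike most genes, both also had more UMIs per barcode, 6.49 against 3.83 for SLC7A5 and 183 against 109 for NEAT1. The median barcode had 354 CPM of SLC7A5 among members and 118 CPM among retained barcodes, with quartiles of 143 and 789 CPM and of 55.6 and 226 CPM, so the sets overlapped for single barcodes. SLC7A5 also belongs to the list of ATF4 targets below.

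Cytosolic ribosomal protein genes formed the group with the lowest median. Of 83 measured genes, 82 were below 0 and 74 at least 1.5-fold lower, where 3.91% of all genes were, and none at least 1.5-fold higher. Their median was -0.80, or 1.19 below that of all genes. Summed, they took 183485 CPM in the retained barcodes and 106016 CPM in the members. RPS21 was the exception, at 0.08. In single barcodes the ribosomal protein share of nuclear UMIs had a median of 17.7% (quartiles 15.1% and 20.2%) in retained barcodes and 7.92% (5.36% and 12.8%) in members, and 1300 of the 1894 members (68.6%) lay below 11.4%, the 5% quantile of the retained barcodes.

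The nuclear-encoded parts of mitochondria had ratios mostly below 0 in the same barcodes in which the mitochondrial messages were higher. Across complexes I to V of the respiratory chain, 69 of 78 measured nuclear subunits were below 0, with a median of -0.49, and their sum was 48751 CPM in the retained barcodes and 35812 CPM in the members. At least 1.5-fold lower were 17 of them and higher 2, where 3.91% and 37.5% of all genes were. The quintile of protein-coding genes with the shortest transcripts, in which 15.2% were lower, holds 59 of these subunits. Of these 59, 12 were lower, with a median of -0.50. Among the 1208 genes of that quintile in the highest tertile of expression, 23.9% were lower, with a median of -0.40. The medians were -0.52 for complex I (37 genes), -0.45 for complexes II and III with cytochrome c (14 genes), -0.42 for complex IV (11 genes) and -0.52 for ATP synthase (16 genes). NDUFS6 (-0.76), UQCRH (-0.77), COX7A2L (-0.65) and ATP5F1E (-0.70) were the lowest of the genes listed for their complexes. NDUFS1, the largest subunit of complex I, was higher, with 117 CPM against 68.8 CPM (0.75), as was SDHA, the flavoprotein of complex II (0.62). The mitochondrial ribosome had a median of -0.41 over 74 genes, of which 15 were at least 1.5-fold lower and none higher (56 of the 74 are in that quintile), and the import pores and chaperones of mitochondria a median of -0.43 over 20 genes, with TOMM22 at -0.87 and TOMM7 at -0.85. Among barcodes with 10000 to 20000 nuclear UMIs the medians of the mitochondrial ribosome and the import list were -0.28 and -0.20.

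Genes that copy, transcribe and process the mitochondrial genome stood at the level of all genes. Of 32, 27 were above 0 and 12 at least 1.5-fold higher, the same share as the 37.5% of all genes, with a median of 0.45 beside the 0.39 of all genes, or 0.060 with TMM factors. Their sum was 1683 CPM in the members and 1707 CPM in the retained barcodes. POLG, the mitochondrial DNA polymerase, was at 36.6 CPM in the members and 15.6 CPM in the retained barcodes (1.18), FASTKD5, which processes mitochondrial RNA, at 34.1 and 14.4 CPM (1.18), and POLRMT, the mitochondrial RNA polymerase, at 74.1 and 37.5 CPM (0.96). SSBP1, which coats single-stranded mitochondrial DNA, and SLIRP, a partner in mitochondrial RNA stability, were chosen after their values were seen and were lower, at -0.67 and -0.60. The 14 genes of mitophagy, the removal of damaged mitochondria, had a median of -0.02. PINK1, the kinase that marks such mitochondria, was at 0.41, and GABARAPL1 and USP30 at 0.82 and 0.71.

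Long RNAs of the nucleus had the highest median of the lists with at least 5 measured genes, 1.42, with all 5 measured genes at least 1.5-fold higher, where 37.5% of all genes were. MALAT1 (chromosome 11, 65265111 to 65275544, GRCh37) alone took 68323 CPM in the retained barcodes and 139559 CPM in the members. NEAT1 (chromosome 11, 65190245 to 65213011), the scaffold of paraspeckles, was 3.02-fold higher on the CPM + 1 scale, KCNQ1OT1 was at 1.49 and FTX at 1.42. Noncoding genes in general did not share this. Without MALAT1 and NEAT1, genes annotated as long noncoding summed to 4686 CPM in the retained barcodes and 5224 CPM in the members. MALAT1 was also unevenly spread, since 612 members (32.3%) had 20% or more of their nuclear UMIs on it, against 2.46% of retained barcodes, while 271 members (14.3%) had under 2%, against 17.4%. Splicing factors and nuclear RNA-binding proteins, led by NKTR (1.28), DDX17 (1.10) and SON (0.89), had a median of 0.35 over 25 genes, which turned to -0.083 with TMM factors.

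Where along the mitochondrial share the levels differed depended on the genes. Ribosomal protein genes took 207635 CPM in retained barcodes under 10%, 170905 CPM at 25% to 30%, 158908 CPM in members at 30% to 35%, 123608 CPM at 35% to 40%, 90606 CPM at 40% to 50%, 65761 CPM at 50% to 60% and 57560 CPM at 60% or more. The nuclear respiratory subunits held at 48103 to 49369 CPM in every bin below 30% and at 48173 CPM at 30% to 35%, and only beyond that were lower, down to 23383 CPM at 60% or more. MALAT1 was at 71431 CPM at 25% to 30%, 77679 CPM at 30% to 35% and 122419 CPM at 35% to 40%, was highest at 50% to 60% with 185813 CPM and stood at 159398 CPM at 60% or more. NEAT1 was higher in every further bin, from 5542 CPM at 25% to 30% to 26337 CPM at 60% or more, and so was SLC7A5, from 194 to 1024 CPM. In these levels, members at 30% to 35% (359 barcodes) were nearer to the retained barcodes of 25% to 30% than to the other members, and 17.5% of them lay below the 11.4% mark of ribosomal protein share, compared with 49.4% at 35% to 40%, 76.2% at 40% to 50%, 93.5% at 50% to 60% and 98.2% at 60% or more. Genes of the cell cycle differed mostly below the limit. HIST1H4C was at 320 CPM under 10%, 178 CPM at 10% to 15%, 88.1 CPM at 20% to 25% and 47.1 CPM at 25% to 30%, and at 15.7 to 36.3 CPM in the bins of members. The G2M genes summed to 4807 CPM under 10% and 2694 CPM at 25% to 30%, and to 2520 to 2862 CPM in the bins of members. The S genes summed to 1491 and 717 CPM in the same bins of retained barcodes, and to 698 to 1038 CPM in those of members.

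**Figure D3:**
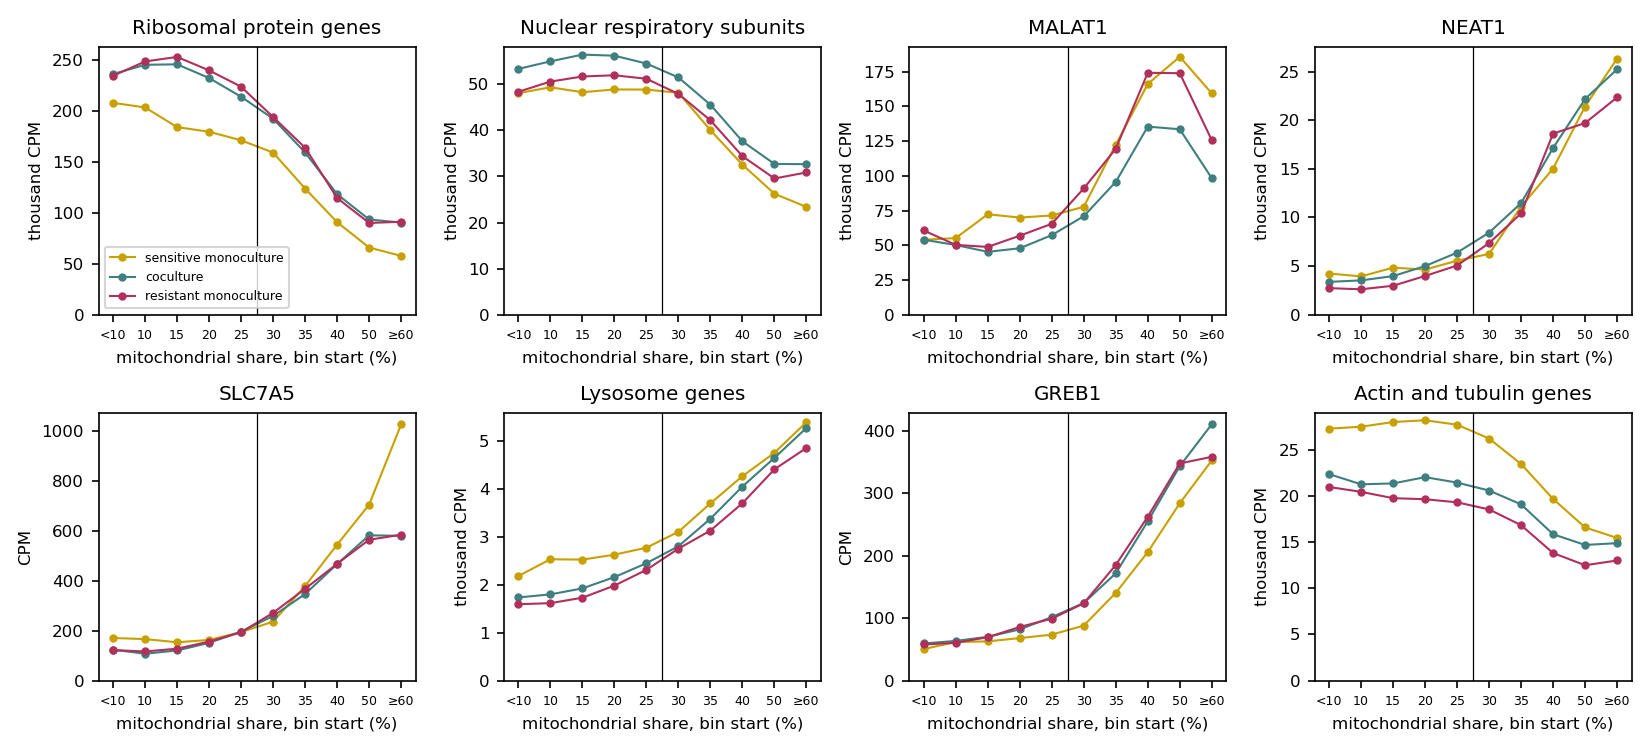
Summed nuclear CPM of 3 gene lists with a common role, of the nuclear subunits of the respiratory chain and of MALAT1, NEAT1, SLC7A5 and GREB1 (y axes, from 0) in bins of the mitochondrial share (x axes, labelled by the start of each bin), for barcodes within the gene and UMI limits of each library. The line marks the limit of 30%. In the sensitive monoculture ribosomal protein genes go from 207635 CPM under 10% to 57560 CPM at 60% or more, and NEAT1 from 4224 to 26337 CPM; the other libraries follow curves of similar shape.

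The ratios also went with transcript length, an analysis chosen after the values were seen. Protein-coding genes were divided into quintiles by the length of their canonical transcript in GENCODE 44. The median log2 ratio was -0.23 in the shortest quintile (median 1274 bases), 0.23 in the following one (2249 bases), 0.48 in the next (3307 bases), 0.65 in the one after (4715 bases) and 0.78 in the longest (7641.5 bases). The share of genes at least 1.5-fold higher went from 5.32% to 67.0%, and that of genes at least 1.5-fold lower from 15.2% to 0.733%. The order held within each tertile of expression, from 0.0029 to 0.72 in the lowest tertile, -0.11 to 0.89 in the middle and -0.40 to 0.69 in the highest. The median ribosomal protein transcript has 869 bases and the median complex I transcript 684.5 bases. Within lists the difference between long and short annotated transcripts varied. The 9 ribosomal protein genes in the 3 longest quintiles (median 4499 annotated bases) had a median of -0.74, near the -0.80 of the 62 in the shortest. The 11 respiratory subunits there (median 5496 annotated bases) had a median of -0.35, near the -0.50 of the 59 in the shortest. Among the 23 lysosome genes, the 8 in the 3 longest quintiles had a median of 0.68 and the 4 in the shortest 0.08. For the unfolded protein response the medians were 0.73 in the 13 genes of the 3 longest quintiles and -0.11 in the 4 of the shortest, and for cholesterol 0.85 in 11 genes, with the 1 gene of the shortest at 0.047. The 3' protocol reads the end of a message, so these lengths describe the annotated transcript and not the part sequenced. Whether the annotated transcript is the one expressed was not tested. The values within lists therefore cannot show how the ratio goes with the length of the expressed message.

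**Figure D4:**
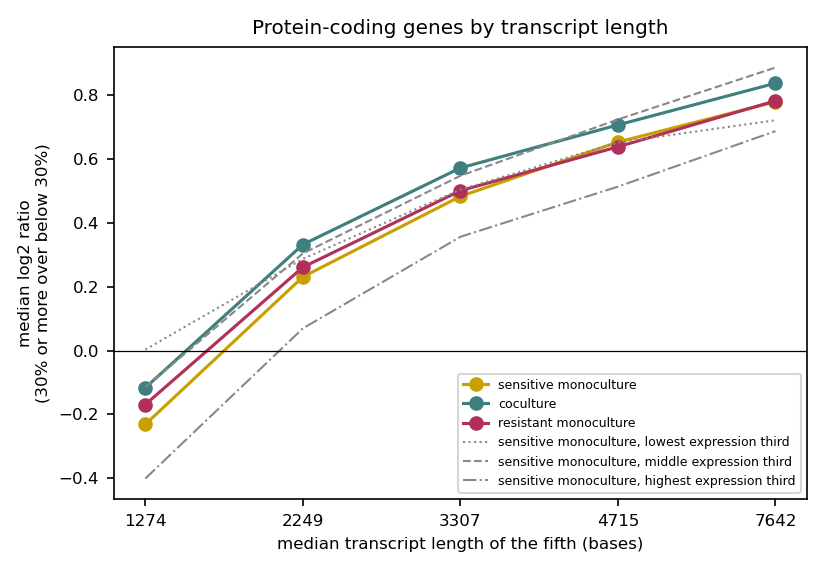
Median log2 ratio of nuclear CPM + 1, members over retained barcodes, for quintiles of protein-coding genes ordered by transcript length (x axis, median bases of each quintile). In the sensitive monoculture the median goes from -0.23 to 0.78 (gold, with tertiles of expression in grey), and the coculture and the resistant monoculture give -0.12 to 0.84 and -0.17 to 0.78.

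Nearly all lysosome and cholesterol genes had ratios above 0, as did 73.7% of all genes tested. Of the 23 lysosome genes, 22 were above 0 and 11 at least 1.5-fold higher, where 37.5% of all genes were, with a median of 0.56 and a sum of 4053 CPM in the members and 2589 CPM in the retained barcodes. NPC1, which exports cholesterol from lysosomes, was at 25.4 and 9.54 CPM (1.32), and GAA, the acid alpha-glucosidase, at 109 and 44.03 CPM (1.29). PSAP, the precursor of the saposins, was chosen after its value was seen, with 413 and 179 CPM (1.21). All 18 cholesterol genes were above 0 and 7 at least 1.5-fold higher, a share near the 37.5% of all genes, with a median of 0.51. LSS, the lanosterol synthase, was at 37.0 and 12.1 CPM (1.54), and SREBF2, the transcription factor that governs the pathway, at 1.30. Relative to all genes these medians were higher by 0.16 and 0.12, and with TMM factors they came to 0.13 and 0.08.

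The lists of stress and cell death are set against all genes, of which 37.5% were at least 1.5-fold higher. Genes of the unfolded protein response of the endoplasmic reticulum had a median of 0.49, with 17 of 20 above 0 and 8 at least 1.5-fold higher, a share near that of all genes, and a median of 0.061 with TMM factors, led by EDEM1 (1.44), SYVN1 (1.26) and SEL1L (1.14), all of the pathway that degrades misfolded proteins. ATF4 targets had a median of 0.21 over 21 genes, below that of all genes, and of -0.22 with TMM factors. SLC7A5 (1.61), SLC7A11, the cystine carrier (1.37), and STC2 (0.90) led them. The cytosolic heat shock genes had a median of 0.17 and 1 of 13 at least 1.5-fold higher, BAG3, a co-chaperone (0.74), and came to -0.26 with TMM factors. Genes of apoptosis had a median of 0.50, or 0.12 with TMM factors, with 9 of 23 at least 1.5-fold higher, a share near that of all genes. The 3 largest ratios in that list belonged to XIAP (1.06) and BCL2L2 (0.97), which oppose apoptosis, and BCL2L11 (0.94), which promotes it. Targets of p53 had a median of 0.49, or 0.097 with TMM factors, with 8 of 16 at least 1.5-fold higher, TP53INP1 at 1.30 and ZMAT3 at 0.93. CDKN1A, its best-known target, was chosen after its value was seen and was at 0.23. The 19 antioxidant and iron storage genes were divided, with 10 above 0 and 9 below, 4 at least 1.5-fold lower (3.91% of all genes were), 1 higher and a median of 0.05, or -0.38 with TMM factors. The ferritin chains FTL and FTH1 and the peroxidase GPX4 had the ratios farthest from 0, at -0.84, -0.79 and -0.74. The quintile with the shortest transcripts, in which 15.2% were lower (23.9% in its highest tertile of expression), holds 9 of the antioxidant and iron storage genes.

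Hypoxia-inducible genes had the highest median among the lists of protein-coding genes with at least 10 measured members, 0.72, with 10 of 15 at least 1.5-fold higher where 37.5% of all genes were, and a sum of 1549 CPM in the members and 869 CPM in the retained barcodes. It was 0.36 with TMM factors. Among barcodes with 10000 to 20000 nuclear UMIs it was 0.44, beside 0.31 for all genes. Several lists then had higher medians, among them the lysosome list at 0.59 and the S phase and G2M lists at 0.65 and 0.71. Of these 15 genes, 11 lay in the 3 longest quintiles of transcript length, in which 41.6% to 67.0% of genes were at least 1.5-fold higher. CA12, a carbonic anhydrase that is also induced by estrogen, made up much of the sum with 911 against 386 CPM (1.24). BHLHE40 was at 1.28 and PDK1, a kinase that inhibits pyruvate dehydrogenase, at 1.21. Glycolytic genes were divided, with HK2 (1.27) and SLC2A1, the glucose carrier GLUT1 (1.14), higher and LDHA lower, with 235 against 387 CPM (-0.72). Their median of 0.26 turned to -0.17 with TMM factors.

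Other cytoplasmic machines had medians below 0, with few genes past the 1.5-fold limit, where 3.91% of all genes were lower and 37.5% higher. Actin, tubulin and their partners had a median of -0.40, with 20 of 22 below 0, 2 at least 1.5-fold lower and none higher, and TMSB4X, which binds free actin, at 2340 CPM in the members and 4122 CPM in the retained barcodes (-0.82). The proteasome had a median of -0.31 over 33 genes, with 2 at least 1.5-fold lower and 1 higher, PSMB6 at -0.77 and PSMA6 at 0.85. Proteins of entry into the endoplasmic reticulum had a median of -0.36 over 18 genes, with 2 at least 1.5-fold lower and 3 higher, SEC61A1, the pore itself, at 1.41 and its small subunit SEC61G at -0.79. Translation factors had a median of -0.24 over 33 genes, with 5 at least 1.5-fold lower and 5 higher, EIF5A at -0.78 and EIF4G1, the scaffold of the cap complex, at 1.01. EIF3C, at 1.19, has a near-identical copy in the genome, so its UMIs are uncertain. The quintile with the shortest transcripts holds 15 of the actin and tubulin genes and 20 of the proteasome genes. In that quintile 15.2% of genes were lower, and 23.9% in its highest tertile of expression. Among barcodes with 10000 to 20000 nuclear UMIs the medians were -0.36 for actin and tubulin, -0.15 for the proteasome, -0.24 for entry into the endoplasmic reticulum and -0.12 for translation factors.

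**Figure D5:**
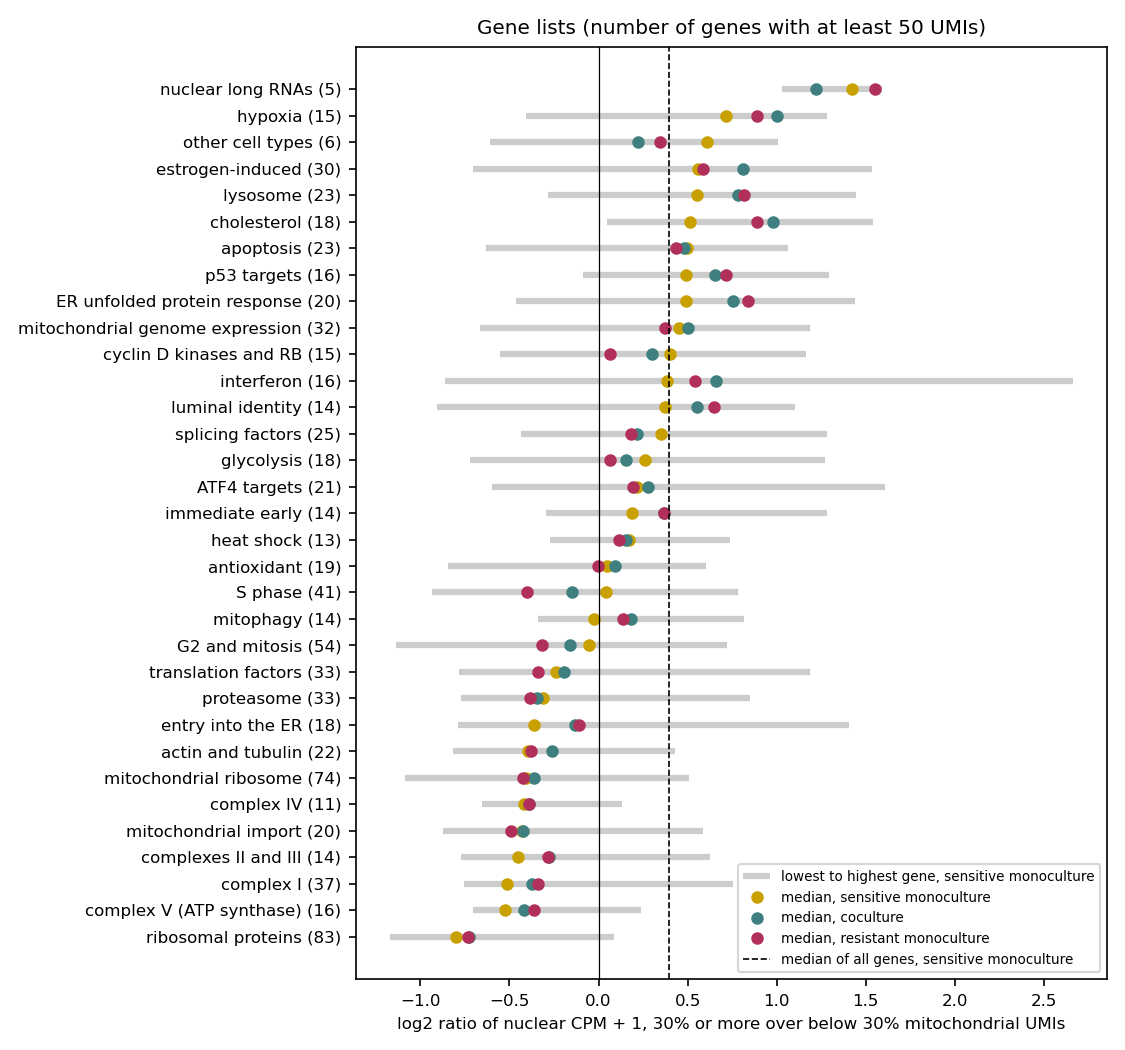
Median log2 ratio of nuclear CPM + 1, members over retained barcodes, of each gene list with at least 5 measured genes, in the sensitive monoculture (gold) and for the same split in the other libraries; grey bars run from the lowest to the highest gene in the sensitive monoculture. Ribosomal proteins lie at -0.80 and nuclear long RNAs at 1.42, and the dashed line marks the median of all genes, 0.39; with TMM factors the gold points and the dashed line move left, the dashed line to 0.02.

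Markers of CAMA-1 identity were present in the members, and those of other cells were low or at 0 except for the collagen gene COL3A1. ESR1, the estrogen receptor, was at 43.4 CPM in the members and 19.7 CPM in the retained barcodes (1.10), GATA3 at 732 and 506 CPM, FOXA1 at 218 and 140 CPM, KRT8 at 2699 and 2552 CPM, KRT18 at 2357 and 3392 CPM and KRT19 at 3761 and 4604 CPM. The luminal list had a median of 0.37, or -0.062 with TMM factors, with MUC1 (1.06) and ERBB3 (1.02) among the highest and AGR2 the lowest (-0.91). TFAP2B of the same list was at 0 UMIs in both sets. Of 13 markers of other cell types, 6 reached 50 UMIs over both sets, and their sum was 108 CPM in the members and 58.0 CPM in the retained barcodes, most of it the collagen gene COL3A1 (89.7 and 44.2 CPM). CD3D of T cells and HBB of red cells were at 0 UMIs in both sets, and PTPRC of leukocytes, LYZ of macrophages, COL1A2 of fibroblasts and KRT5 of basal cells had 0 to 2 UMIs in each. COL1A1 of fibroblasts had 201 UMIs in the members and 306 in the retained barcodes, KRT14 of basal cells 127 and 345, and HBA1 of red cells 62 and 340. CD68 had 25 and 35 UMIs, VWF of endothelium 31 and 28, and TP63 of basal cells 1 and 5. The part of the other markers in the results was not tested.

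Estrogen-induced genes had a median of 0.56, higher than that of all genes by 0.16, with 15 of 30 at least 1.5-fold higher where 37.5% of all genes were. With TMM factors the median was 0.13, beside 0.02 for all genes. GREB1, a cofactor of the receptor, was at 192 CPM in the members and 66.0 CPM in the retained barcodes (1.53) and had 2.46 and 1.52 UMIs per barcode. KCNK5 was at 1.53, CELSR2 at 1.38 and PGR, the progesterone receptor, at 37.4 and 18.4 CPM (0.99). TFF1, the classic short secreted target, was chosen after its value was seen and was lower, with 1966 against 2349 CPM (-0.26). Of the direct targets of the drug, CDK4 was at 101.2 and 135 CPM (-0.41), and CDK6 had 14 and 18 UMIs in all, too few to compare. CCND1, the cyclin D1 partner, was at 3031 and 2240 CPM (0.44), E2F3 at 1.16 and RB1, the protein whose phosphorylation the drug blocks, at 0.63. The list of cyclin D kinases, their inhibitors and RB had a median of 0.40, at the level of all genes, and -0.020 with TMM factors.

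The place of the cell cycle genes depended on the scale and the depth. The S phase list had a median of 0.04 over 41 genes and the G2 and mitosis list -0.05 over 54, both below the 0.39 of all genes and at -0.36 and -0.47 with TMM factors, with TYMS (-0.93), PRIM1 (-0.70), BIRC5 (-1.14), UBE2C (-0.91) and CENPA (-0.86) the lowest. Depth moved with these values. Among barcodes with 10000 to 20000 nuclear UMIs the medians were 0.65 and 0.71, and TYMS, BIRC5, UBE2C and CENPA came to 0.86, 0.12, 0.60 and 0.45. With every barcode thinned to 5000 nuclear UMIs and phases called from the scores of both lists, 715 members (37.8%, 35.6% to 39.98%) scored above 0 for S or G2M, against 56.0% of retained barcodes (54.3% to 57.7%). Such calls are loose, because the same procedure on the retained barcodes gave 56.0% where the phases deposited by the authors give 11.0%, and the same call in 53.9% of barcodes, so no cycling is read from them. With a score above 0.1 the shares were 9.24% and 13.4%. Within the retained barcodes, those deposited as S or G2M had median mitochondrial shares of 17.7% and 18.3%, and those in G1 21.2%.

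The transgene of the sensitive lineage was the sole one seen. No mCherry UMI was found in any barcode of the sensitive monoculture, and for the 1894 members a count of 0 allows a share of barcodes with an mCherry UMI of up to 0.158%. The limit on the share of cells that carry mCherry is looser than this, since in the resistant monoculture only 43.4% of high-mitochondrial barcodes had such a UMI. mVenus was at 49.0 CPM (46.3 to 51.9) in the members and 68.0 CPM (66.2 to 69.9) in the retained barcodes, with a UMI in 37.7% of members and 67.8% of retained barcodes. At an equal 5000 nuclear UMIs the shares were 18.6% (16.9% to 20.5%) and 26.3% (24.8% to 27.8%).

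The rule required more than 3000 detected genes, which at the lower nuclear depth of the members keeps barcodes with many genes per UMI and leaves out 2593 others at 30% or more, so genes at equal depth are a description with nothing read from them. Thinned to 5000 nuclear UMIs, the median was 2251 genes (quartiles 2101 and 2426.75) in the members and 2008 (1942 and 2079) in the retained barcodes, while without thinning it was 3847.5 and 4596 nuclear genes. Scrublet gave a doublet score above 0.25 to 72 members (3.801%) and 56 retained barcodes (1.68%).

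Each member was then matched to the 20 retained barcodes nearest to it on 30 principal components of nuclear genes at equal depth. When a retained barcode was left out and matched in this way, it received its own deposited cluster in 86.8% of cases, but in 48.7% of cases for cluster 3. Of the members, 1173 (61.9%, 59.7% to 64.1%) were nearest to cluster 4, 483 (25.5%) to cluster 12 and 204 (10.8%) to cluster 8. The same matching put 66.9% of retained barcodes in cluster 4, 4.45% in cluster 12 and 17.9% in cluster 8. Clusters 7 and 3, which drew 6.04% and 4.75% of retained barcodes, drew 29 and 5 members, although with 5 neighbours cluster 3 drew 72 members (3.801%, and 5.53% of retained barcodes). The share nearest to cluster 4 depends on the settings and ran from 54.6% without thinning to 76.0% with 50 neighbours. The share nearest to cluster 12 depends on them far more, and ran from 3.06% (58 members) with 50 neighbours to 34.1% (645 members) without thinning. That nearest to cluster 8 ran from 9.40% without thinning to 19.6% with 50 neighbours. With 50 neighbours the order of members and retained barcodes turned for clusters 4, 8 and 12, whose shares of retained barcodes were then 68.6%, 17.4% and 3.94%. Members also lay mostly among themselves. Of the 20 nearest barcodes of any kind, 86.8% were members for a member and 23.6% for a retained barcode. With 10 components these shares were 78.6% and 12.9%, and without thinning 81.0% and 11.2%.

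The 483 members nearest to cluster 12 with 20 neighbours, a set that shrinks to 58 with 50 neighbours, had a median mitochondrial share of 52.3%, 9945 nuclear UMIs, 50655 CPM of ribosomal protein genes and 279330 CPM of MALAT1. The 156 retained barcodes of cluster 12 itself had 19.99%, 18914 nuclear UMIs, 152521 CPM and 110068 CPM, so nearness did not mean likeness in these genes. Members nearest to cluster 4 had 43.4%, 12738 nuclear UMIs, 124191 CPM and 96524 CPM. Beyond the gene limit lay a further 2593 barcodes at 30% or more with 3000 genes or fewer (median 1774 genes and 4100 nuclear UMIs), which are not members. Their ribosomal protein genes took 60278 CPM, MALAT1 296381 CPM and NEAT1 25783 CPM.

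The same split in the other libraries used barcodes that the rule did not. High-mitochondrial barcodes made up 21.8% (21.1% to 22.4%) of 15786 barcodes within the limits in the coculture and 11.3% (10.6% to 11.95%) of 8516 in the resistant monoculture. At least 1.5-fold higher were 39.4% and 38.3% of genes, and lower 2.75% and 4.12%. Across the 2676 genes whose mean reached 50 CPM in every library, the log2 ratios had a Pearson r of 0.960 with the coculture and 0.944 with the resistant monoculture. This describes the libraries, since genes are not independent replicates. Ribosomal protein genes had medians of -0.73 and -0.73, complex I -0.37 and -0.34, nuclear long RNAs 1.22 and 1.55, lysosome genes 0.78 and 0.82 and cholesterol genes 0.98 and 0.89. Of the barcode sequences of the members, 7 also occurred in the coculture and 5 in the resistant monoculture.

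The libraries were not alike in all genes. MUCL1, a secreted mucin-like protein, and FABP7, a fatty acid-binding protein, were chosen after their values were seen. They were lower in the members of the sensitive monoculture, at -0.42 and -0.51, but MUCL1 was higher in the coculture, at 1.07, and at 1.02 among its barcodes with mVenus and no mCherry UMI. FABP7 was at 0.68 and, among those barcodes, at 0.15. MUCL1 was also higher in the resistant monoculture, at 1.37. FABP7 was too low there to compare, at 1.41 and 0.964 CPM. COL3A1 was at 1.01 in the sensitive monoculture and 1.92 in the coculture. Among the barcodes of the coculture with mVenus and no mCherry UMI, COL3A1 was at 1.11. In the coculture an mCherry UMI was found in 23.0% of high-mitochondrial and 54.8% of other barcodes, and an mVenus UMI in 21.6% and 20.5%. These shares also depend on detection, since in the resistant monoculture an mCherry UMI was found in 43.4% and 72.9%. The part of the lineages in the value of COL3A1 was not tested. IFIT2, IFIT3 and IFIT1, interferon-induced genes with log2 ratios of 2.66, 2.56 and 1.54, had few UMIs from few barcodes, the 10 richest members holding 93.1%, 100% and 73.9% of their UMIs. The interferon list as a whole had a median of 0.38. Immediate early genes had a median of 0.19, or -0.25 with TMM factors, with KLF6 (1.28), a transcription factor, the highest.

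In the coculture the share differed between the lineages of a single library. Of 2726 barcodes with an mVenus UMI and no mCherry UMI, 24.5% (22.9% to 26.1%) were at 30% or more, and of 7007 with mCherry and no mVenus 10.2% (9.50% to 10.9%). With at least 2 UMIs of the transgene required, the shares were 15.1% and 5.37%. The 548 barcodes with both transgenes had 13.9%. A transgene UMI was found less often in barcodes of low nuclear depth, which moves with the mitochondrial share, and its part in these shares was not tested. Within the sensitive monoculture, the same requirement of at least 2 mVenus UMIs left 256 members of 1570 barcodes, or 16.3%.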

How the data were processed

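Single-cell RNA-seq (10X 3' chemistry) was measured in 3 libraries, 1 per condition, of ribociclib-treated CAMA-1 spheroids. The authors aligned reads with Cell Ranger 3.0.2 to GRCh37. They deposited raw counts (UMIs of each gene in each barcode) and, for retained cells, an annotation with the mitochondrial percent, UMIs, genes, clusters and phases. The study's methods also name limits on doublet score and transgene UMIs, but the annotation held every barcode of the sensitive monoculture within the gene, UMI and mitochondrial limits, among them 1314 with 2 or more mVenus UMIs.

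Rows with a gene symbol were used (0.523% of UMIs of the sensitive monoculture lay in other rows). The sensitive monoculture had 173405094 UMIs, the coculture 519475237 and the resistant monoculture 359599734. Barcodes were selected as described above, and 48, 34 and 60 barcode sequences occurred in pairs of libraries. Nuclear CPM sums were compared as log2 ratios with a pseudocount of 1 CPM for genes with at least 50 UMIs, and differences of at least 1.5-fold were counted. Cells are not replicates, so no test was made. Intervals are 95% exact Poisson or Clopper-Pearson intervals, a count of 0 was read as at most 3, and both cover counting error only. The members and gene lists were chosen with earlier results of these data known. Genes named are the mitochondrial genes, the 10 highest and 10 lowest ratios among genes whose mean reached 50 CPM, the 3 largest of each list, MALAT1, NEAT1, nuclear copies of mitochondrial RNA, the transgenes, CDK4, CDK6, CCND1, ESR1, PGR and the cell type markers. A few genes that this choice names are not reported here. RPS21 was singled out after its value was seen, as were the analyses of transcript length, of members by nearest cluster and of shallow barcodes. Transcript lengths and coordinates came from GENCODE 44 lifted to GRCh37, which matched 12125 of the 12134 genes, and 11583 protein-coding genes were divided by length. Doublets were scored with scrublet in scanpy 1.11.5 and not removed. Phase scores were the mean of each list minus that of control genes of similar expression. Neighbours were found (20 neighbours, 30 components) with scikit-learn 1.9.0 (Python 3.11.15, numpy 2.4.6, scipy 1.17.1). TMM factors came from edgeR 4.0.16 (R 4.3.3), for scaling only. The scripts were tested on simulated data. Alternatives were other thresholds, pseudocounts, UMI minimums, scalings, depth ranges, doublet, phase and transgene filters, thinning depths and neighbour settings.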

Additional observations from a re-analysis of the deposited data

How the results depend on the processing

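With 1 library per condition no result has a replicate check, and each is a description of these libraries. No paired analysis was possible because each condition has a single library. The count of 4555 genes at least 1.5-fold higher became 1544 with a fold of 2, 2098 with a pseudocount of 10 CPM, 1694 with TMM factors and 2190 among barcodes with 2 or more mVenus UMIs. The count of 475 lower genes became 16, 1209 (below 20% against 40% or more), 2053 with TMM factors and 196 with 2 or more mVenus UMIs. Of the calls, 90.6% were higher, and 45.2% with TMM factors. The share of 36.3% was 51.9% over all barcodes of the library and 16.3% with 2 or more mVenus UMIs. The median of 2251 detected genes was 1355.5 at 2500 nuclear UMIs and 3847.5 without thinning. The share scored as cycling, 37.8%, was 32.9% without thinning, 9.24% with a score above 0.1 and 44.4% at 2500 nuclear UMIs. The share nearest to cluster 4, 61.9%, was 76.0% with 50 neighbours, 57.2% with 10 components and 54.6% without thinning. Of 420 list medians over 35 lists and 12 alternatives, 282 moved by no more than the counting interval of the list's middle gene, 128 moved further, and 10, in 8 lists, turned (lists with medians within 0.1 of 0 were not read for sign). With TMM factors ATF4 targets came to -0.22, heat shock genes to -0.26, glycolysis to -0.17, splicing factors to -0.083, cyclin D kinases and RB to -0.020, luminal genes to -0.062 and immediate early genes to -0.25. Immediate early genes were also at -0.015 at 10000 to 20000 nuclear UMIs and -0.00799 with 2 or more mVenus UMIs, and mVenus itself at 0.39 with 2 or more mVenus UMIs, a filter on that same count. Of 114 named genes past the fold, 1348 values kept their direction and 8 turned. At 10000 to 20000 nuclear UMIs TYMS was at 0.86, BIRC5 at 0.12, UBE2C at 0.60, CENPA at 0.45 and EGR1 at -0.028, and among barcodes called G1 TYMS was at 0.029, UBE2C at 0.12 and CENPA at 0.16. Other than where a filter acts on the value itself, the cause was not tested.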

Other observations

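Several mitochondrial genes differed more in share in the other libraries than in the sensitive monoculture, MT-ND6 the most. The log2 ratio of shares of MT-ND4L, for example, was -0.18 in the sensitive monoculture, -0.33 in the coculture and -0.26 in the resistant monoculture. MT-ND6, a complex I subunit and the sole protein gene on the light strand of the mitochondrial genome, was chosen after its values were seen. It made up 0.129% of mitochondrial UMIs in the high-mitochondrial and 0.140% in the retained barcodes of the sensitive monoculture, 0.207% and 0.312% in the coculture, and 0.169% and 0.276% in the resistant monoculture. Per barcode it was 1.72-fold, 1.28-fold and 1.21-fold higher, where MT-CYB was 1.95-fold, 2.15-fold and 2.15-fold higher. Within the coculture, MUCL1 was higher in the high-mitochondrial barcodes of both lineages, at 1.02 among those with mVenus and no mCherry UMI and 0.79 among those with mCherry and no mVenus UMI, whereas it was at -0.42 in the sensitive monoculture. FABP7 was at 0.15 and 1.11 in the same sets.

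The sensitive monoculture also held 765 barcodes below 30% with 3000 genes or fewer. Their medians were 4.41% mitochondrial UMIs, 718 genes and 975 nuclear UMIs, and ribosomal protein genes took 145813 CPM and MALAT1 99389 CPM. The barcodes at 30% or more with 3000 genes or fewer had 60278 and 296381 CPM. They were deeper, with medians of 1774 genes and 4100 nuclear UMIs.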
